A study of Mus musculus with 28 samples.

Results

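The 6 genes described here are Pou5f1 (the gene of Oct4), Sox2, Sall4, Sall1, Sall2 and Utf1, taken by symbol from the 24116 gene IDs of the count tables, and all 6 passed the filter on low counts in every fit. As mouse embryonic stem cells left the naive state, Pou5f1 stayed within a narrow range, Sox2 fell and Sall2, Sall1 and Utf1 rose. Sall2 moved most: at 32 h it was 2.9 log2 units above the ESC level in WT cells of the ribo-depleted set and 3.35 log2 units above it in WT cells of the polyA set. In Zfp281 KO cells Sall2 and Utf1 were lower than in WT at each of the 3 stages, and Sox2 was 1.91-fold higher at 32 h. In Ehmt1/Zic2 KO cells Sox2 was higher than in WT at both stages measured, Pou5f1 was lower at both, and Sall2 was lower at 32 h.

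Oct4, a POU-domain factor, and Sox2, an HMG-box factor, bind neighbouring DNA motifs as a pair and hold the gene network of pluripotent cells together. The Sall genes encode zinc-finger factors related to Drosophila spalt. Sall4 and Sall1 carry a short N-terminal motif that recruits the deacetylase complex NuRD, Sall4 is needed for the growth of embryonic stem cells, and Sall2 is the most divergent relative. Utf1 encodes a chromatin-associated protein of embryonic stem cells whose enhancer is bound by Oct4 with Sox2.

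RNA was sequenced from 28 libraries of the female mouse embryonic stem cell line RGd2, which carries a destabilised GFP reporter with a blasticidin resistance gene at Rex1 (Zfp42). The stage called ESC is growth on gelatin in N2B27 with 2i, that is CHIR99021, an inhibitor of Gsk3, plus PD0325901, an inhibitor of Mek; later stages are 16 h and 32 h of culture without 2i. There were 14 groups of 2 libraries, the 2 of a group from different lines, and the same lines recur at each stage of their kit. In ribo-depleted libraries Zfp281 KO (KO1 and KO2) was set against WT (lines WT and Zfp281_WT) at ESC, 16 h and 32 h. In polyA libraries Ehmt1/Zic2 KO, Ehmt1 KO and Zic2 KO (KO1 and KO2 of each) were set against WT (lines Ehmt1_WT and Zic2_WT) at ESC and 32 h. Nothing in the labels says that a line was cultured more than once, so replication is by 2 lines per group. P-values use the spread between lines within groups, pooled over all groups of a fit. The main fits do not pair the stages of a line. The kits capture different RNA and are kept apart throughout, and all cells share the RGd2 reporter background.

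Totals per library ran from 18086421 to 35911590 counts in the ribo-depleted ESC and 32 h set, from 28538287 to 36365192 counts in the 16 h set and from 19013882 to 28777604 counts in the polyA set. At ESC and 32 h, line Zfp281_WT differed from the rest in having a count on up to 89.0% of olfactory receptor genes, and the next highest ribo-depleted library had one on 24.8%. What this means for the WT values, of which this line gives 1 of 2, was not tested. Values of the 6 genes whose call changes without the line are given without it as well. Such fits hold 1 WT library per stage. Their spread comes from the Zfp281 KO clones alone, with none between WT lines. Summed levels of 6 stem cell markers (Esrrb, Nanog, Dppa5a, Tdgf1, Lin28a, Zfp42) lay between 1673 and 3253 CPM in every library, against 2.64 to 17.8 CPM for 7 fibroblast markers, 5.76 to 28.7 CPM for 7 primitive endoderm markers, 5.9 to 42.5 CPM for 6 mesendoderm markers and 17.3 to 112 CPM for 7 trophoblast markers. The highest of the other lists was that of 7 neural markers, at 75.3 to 168 CPM in ribo-depleted and 89.5 to 347 CPM in polyA libraries. Genes on the X chromosome held 4.7% and 4.8% of the counts in Zfp281 KO, against 3.9% and 3.3% in ribo-depleted WT at ESC. At 16 h they held 4.6% and 4.7%, against 4.0% and 3.5%, and at 32 h 4.4% and 4.4%, against 4.0% and 3.4%. This difference goes with genotype in every comparison of Zfp281 KO with WT, and its part in the results was not tested. Ehmt1 averaged 25.6 CPM in Ehmt1/Zic2 KO and 21.2 CPM in Ehmt1 KO, against 86.8 CPM in WT at ESC. Zfp281 averaged 277 CPM in libraries labelled Zfp281 KO and 272 CPM in WT at ESC, and Zic2 averaged 128 CPM in libraries labelled Zic2 KO and 108 CPM in WT at ESC. In libraries labelled Ehmt1/Zic2 KO the clones differed: Zic2 measured 141 CPM in KO1 and 66.5 CPM in KO2, against 111 and 105 CPM in WT at ESC, and 208 CPM in KO1 and 77.3 CPM in KO2, against 146 and 144 CPM in WT at 32 h. Counts of Zfp281 and Zic2 therefore do not check those labels, since the sources used here do not say which stretch of either gene was altered.

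The genes lie on 6 chromosomes of GRCm38 by the RefSeq annotation. Pou5f1 (gene ID 18999) spans chr17:35506032-35510777 on the plus strand, Sox2 (20674) chr3:34649995-34652461 on the plus strand and Utf1 (22286) chr7:139943856-139945112 on the plus strand. Sall4 (99377) spans chr2:168748332-168767201, Sall1 (58198) chr8:89027242-89044162 and Sall2 (50524) chr14:52311177-52328670, all on the minus strand. Sox2 is a single-exon gene inside the lncRNA Sox2ot, which had 2 to 6.04 CPM in ribo-depleted and 0.575 to 1.9 CPM in polyA libraries. The strand setting of the counting is not given, so reads on the shared stretch cannot be told apart.

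The promoter sequence is shown for the 3 genes called both for 32 h against ESC in WT of each kit and for Zfp281 KO against WT at 32 h, as the 250 bases before a RefSeq start of GRCm38.p6, 5′ to 3′ on the gene's strand. Capitals mark matches, on either strand, to the octamer ATGCAAAT, its core ATGCAAA, the Sox core CATTGT, the G-rich word GGGGAGGGG or the GC box GGGCGG. The regions are chr14:52316324-52316573 (minus) for the inner Sall2 start, chr7:139943606-139943855 (plus) for Utf1 and chr3:34649745-34649994 (plus) for Sox2.
Sall2: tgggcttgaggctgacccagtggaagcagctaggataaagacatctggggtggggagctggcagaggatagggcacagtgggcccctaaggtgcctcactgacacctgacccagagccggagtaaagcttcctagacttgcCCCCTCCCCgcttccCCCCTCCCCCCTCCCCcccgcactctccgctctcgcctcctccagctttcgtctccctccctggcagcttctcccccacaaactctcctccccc
Utf1: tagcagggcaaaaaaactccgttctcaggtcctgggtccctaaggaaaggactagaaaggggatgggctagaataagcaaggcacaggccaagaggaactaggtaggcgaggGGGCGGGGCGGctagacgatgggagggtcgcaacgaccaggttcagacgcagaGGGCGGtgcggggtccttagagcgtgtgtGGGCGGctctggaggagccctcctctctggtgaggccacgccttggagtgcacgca
Sox2: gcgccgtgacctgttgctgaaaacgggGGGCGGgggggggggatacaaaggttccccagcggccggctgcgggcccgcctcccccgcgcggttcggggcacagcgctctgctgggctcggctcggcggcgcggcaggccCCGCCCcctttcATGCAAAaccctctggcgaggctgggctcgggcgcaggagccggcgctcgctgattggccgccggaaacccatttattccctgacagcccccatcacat

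The inner Sall2 window held 3 matches to the G-rich word, of which 2 overlap, and none to the other words. The G-rich word was also found in the 3 Sall1 windows, with 1, 1 and 2 matches. The Utf1 window held 4 GC boxes, of which 2 overlap, and the Sox2 window held 2 GC boxes and 1 octamer core. Among 32851 RefSeq promoter windows, each searched over the same 250 bases before the start, 5.753% held the G-rich word and 32.742% the GC box. The octamer core was held by 4.125%, the full octamer by 1.601% and the Sox core by 10.691%. Every octamer is also a match to the core. These shares are not matched for GC: the median over all windows was 52.4%, against 61.6% in the Utf1 and 72.0% in the Sox2 window. The outer Sall2 window, at chr14:52328671-52328920, held no match and had 28.0% GC, against 64.4% in the inner one. These matches describe letters and were not tied to any binding measurement.

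In WT cells the exit from the naive state split the 6 genes. Sall2, Sall1 and Utf1 rose between ESC and 32 h in each kit, Sox2 fell in each kit, and Pou5f1 and Sall4 did not pass the test in either. In the ribo-depleted set 3 of 6 rose and 1 fell, where 25.9% of all 18971 genes tested were called (15.0% higher, 11.0% lower). In the polyA set the counts were again 3 and 1, where 35.7% of 15667 genes were called (17.9% higher, 17.8% lower). The median log2 fold change of the 6 was 0.59 in the ribo-depleted and 0.48 in the polyA set, against 0.02 and 0.01 over all genes tested. In bulk samples fewer cells of a type and less RNA per cell cannot be told apart, here and in every comparison that follows.

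Pou5f1, the most abundant of the 6 per kb of exon in every library, measured 1080 and 882 CPM at ESC, 1162 and 1298 CPM at 16 h and 1105 and 1017 CPM at 32 h in lines WT and Zfp281_WT. In polyA WT libraries it measured 1556 and 1465 CPM at 32 h, against 1888 and 1490 CPM at ESC. The stages overlap except 16 h against the other stages, and the highest library was 1.47 times the lowest in the ribo-depleted set and 1.75 times in the polyA set. The 32 h to ESC log2 fold change was 0.15 ± 0.1 (SE, adjusted p = 0.34) in the first set and -0.16 ± 0.11 (adjusted p = 0.29) in the second. With line as a block the first was called (0.15, adjusted p = 0.023), and it turned to -0.03 without the ESC library of Zfp281_WT. The second turned to 0.02 without the ESC library of Ehmt1_WT and was -0.33 (adjusted p = 0.036) without that of Zic2_WT.

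Sox2 was lower at 32 h than at either earlier stage. Lines WT and Zfp281_WT had 472 and 448 CPM at ESC, 463 and 539 CPM at 16 h and 283 and 230 CPM at 32 h. The 32 h libraries lie below all WT libraries of the earlier stages. At 32 h the log2 fold change was -0.81 ± 0.11 against ESC (adjusted p = 0.00053) and -0.97 ± 0.11 against 16 h (adjusted p = 7.5e-05), while 16 h against ESC gave 0.12 ± 0.11 (adjusted p = 0.41) and -0.02 without line Zfp281_WT. PolyA WT libraries had 99.9 and 118 CPM at 32 h, against 232 and 235 CPM at ESC, a log2 fold change of -1.1 ± 0.17 (adjusted p = 0.00031).

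Sall4, the family member with the highest level per kb at ESC, went up and down by small steps. It had 258 and 232 CPM at ESC, 321 and 306 CPM at 16 h and 211 and 209 CPM at 32 h in lines WT and Zfp281_WT. The stages do not overlap. The log2 fold change was 0.36 ± 0.09 at 16 h against ESC (adjusted p = 0.013) and -0.58 ± 0.09 at 32 h against 16 h (adjusted p = 0.00093). For 32 h against ESC it was -0.19 ± 0.07 (adjusted p = 0.083), which was called with line as a block (adjusted p = 0.008), with DESeq2 (-0.25), without line Zfp281_WT (-0.29) and without its ESC library (-0.3). In polyA WT libraries Sall4 had 267 and 256 CPM at 32 h against 259 and 249 CPM at ESC, a difference of 0.04 ± 0.1 (adjusted p = 0.76).

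Sall1 rose early. Line WT had 109 CPM at ESC, 234 CPM at 16 h and 194 CPM at 32 h, and line Zfp281_WT had 63.8 CPM at ESC, 156 CPM at 16 h and 148 CPM at 32 h. Line Zfp281_WT was lower at each stage, and both lines were above their ESC level later. Relative to ESC the log2 fold change was 1.17 ± 0.26 at 16 h and 1.03 ± 0.21 at 32 h (adjusted p = 0.011 and 0.0076 in that order). PolyA WT libraries had 383 and 376 CPM at 32 h, against 153 and 196 CPM at ESC, a log2 fold change of 1.12 ± 0.12 (adjusted p = 2.2e-05).

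Sall2 rose most, and it was high by 16 h. It had 13.8 and 11.2 CPM at ESC, 72.8 and 83 CPM at 16 h and 87.4 and 95.6 CPM at 32 h in lines WT and Zfp281_WT. All later libraries lie far above the ESC ones. Compared with ESC, the log2 fold change was 2.63 ± 0.12 at 16 h and 2.9 ± 0.1 at 32 h (adjusted p = 1e-08 and 5.7e-07 in that order). For 32 h against 16 h it was 0.23 ± 0.11 (adjusted p = 0.16). Without line Zfp281_WT that step was 0.28, called with the spread of the Zfp281 KO clones alone. PolyA WT libraries had 189 and 181 CPM at 32 h, against 17.3 and 18.9 CPM at ESC (log2 fold change 3.35 ± 0.21, adjusted p = 4.1e-07). These calls on the rise from ESC held under every alternative run.

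Utf1 rose by 16 h, and its step from there to 32 h was not called. It had 15.8 and 16.2 CPM at ESC, 45.4 and 40.9 CPM at 16 h and 30.9 and 38.3 CPM at 32 h in lines WT and Zfp281_WT. The stages do not overlap. The log2 fold change against ESC was 1.43 ± 0.16 at 16 h and 1.14 ± 0.11 at 32 h (adjusted p = 1.7e-05 and 9.1e-05 in that order), and 32 h against 16 h gave -0.32 ± 0.15 (adjusted p = 0.16). PolyA WT libraries had 192 and 249 CPM at 32 h, against 136 and 98.5 CPM at ESC, a log2 fold change of 0.91 ± 0.32 (adjusted p = 0.04).

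At 16 h 5 of the 6 genes were called above ESC in WT, where 24.9% of 19001 genes were called (14.3% higher, 10.6% lower), and between 16 h and 32 h 2 fell and none rose, where 16.4% were called (7.55% higher, 8.87% lower). The 16 h libraries were deposited in a table of their own, so stage and table cannot be told apart in these steps, and the median over all genes was -0.1 at 16 h against ESC and 0.11 at 32 h against 16 h. The fifth gene at 16 h was Pou5f1 (0.33 ± 0.11, adjusted p = 0.048), whose call was lost under most alternatives: 0.19 without the ESC library of Zfp281_WT, 0.4 and 0.26 without the 16 h library of WT and of Zfp281_WT, 0.11 without line Zfp281_WT, and 0.31 with no filter. The 16 h call of Sall1 was lost without the Zfp281_WT library at ESC (0.84) or the WT library at 16 h (0.84), that of Sall4 without the WT (0.31) or the Zfp281_WT (0.41) library at 16 h, and the 32 h value of Sall1 was 0.65 without the Zfp281_WT library at ESC. The polyA call of Utf1 was lost without any 1 of the 4 WT libraries (0.69 to 1.16). With all libraries kept, the calls of Sall1 at 16 h (1.12, adjusted p = 0.1) and 32 h (0.98, adjusted p = 0.059) and of Sall4 at 16 h (0.29) were lost with only the groups compared in the fit. Those of Sall4 at 16 h (0.34, adjusted p = 0.051) and of Utf1 in the polyA set (0.91, adjusted p = 0.12) were lost with no filter. Sall1 differed by -0.19 ± 0.26 at 32 h against 16 h (adjusted p = 0.61), and by 0.12 without the 16 h library of WT. Without line Zfp281_WT it differed by -0.26, called with the spread of the Zfp281 KO clones alone.

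**Figure D1:**
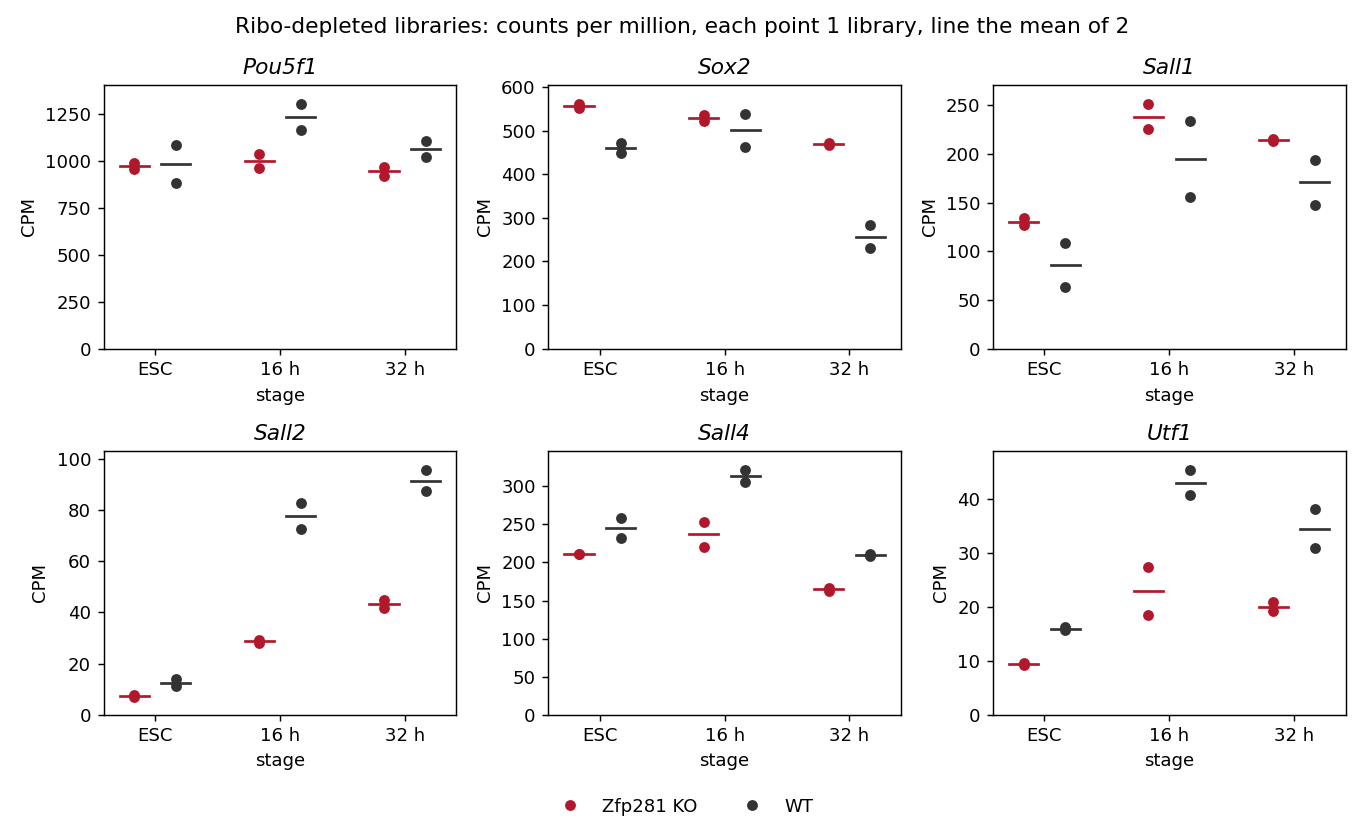
Level of each of the 6 genes in the ribo-depleted libraries, in CPM on a linear axis from 0, at ESC, 16 h and 32 h. Each point is 1 library and each line the mean of 2, with Zfp281 KO left of WT at each stage; Sall2 and Utf1 points of Zfp281 KO sit below the WT points at every stage, and the Sox2 points separate most at 32 h, at 471 and 468 CPM in Zfp281 KO against 283 and 230 CPM in WT.

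Zfp281 is a zinc-finger factor that binds G-rich DNA. In cells labelled Zfp281 KO Sox2 was higher than in WT at 32 h, and Sall2, Utf1 and Sall4 were lower. At 32 h 1 of the 6 genes was higher and 3 were lower, where 28.5% of all genes tested were called (16.6% higher, 11.9% lower). At ESC none was higher and 2 were lower, where 13.8% were called (8.5% higher, 5.3% lower). At 16 h none was higher and 3 were lower, where 28.6% of 15139 genes were called (15.3% higher, 13.3% lower). The median of the 6 was -0.09 at ESC, -0.33 at 16 h and -0.19 at 32 h, against -0.04, -0.01 and -0.07 over all genes tested.

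Sox2 in KO1 and KO2 measured 552 and 560 CPM at ESC, 537 and 523 CPM at 16 h and 471 and 468 CPM at 32 h. At 32 h the KO libraries lie in the range of WT cells at ESC, and above WT cells at 32 h (283 and 230 CPM). At 32 h the log2 fold change was 0.94 ± 0.11 (adjusted p = 0.00026). At ESC it was 0.3 ± 0.11 (adjusted p = 0.1), called without line Zfp281_WT (0.25) and without the ESC library of line WT (0.41). At 16 h it was 0.1 ± 0.09 (adjusted p = 0.46), called without the 16 h library of Zfp281_WT (0.21). Each of these calls came from a fit with 1 WT library left at that stage. Within KO cells 32 h differed from ESC by -0.17 ± 0.11 (adjusted p = 0.32), which was called with only the groups compared in the fit (-0.24), as was the -0.18 ± 0.11 at 32 h against 16 h (adjusted p = 0.52, and 0.029 in that fit). The difference between the KO and WT responses was 0.64 ± 0.15 with adjusted p = 0.051. That difference was called with line as a block (0.65, adjusted p = 0.0027), with DESeq2 (adjusted p = 0.0033), without line Zfp281_WT (0.49), and without the ESC library of WT (0.56) or Zfp281_WT (0.64) or the 32 h library of WT (0.81).

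The lncRNA Sox2ot averaged 3.84 CPM in Zfp281 KO and 2.04 CPM in WT at 32 h, a log2 fold change of 0.98 (adjusted p = 0.045). Its level is small beside that of Sox2, and its part in the Sox2 counts was not tested.

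Sall2 in KO1 and KO2 measured 6.97 and 7.62 CPM at ESC, 28.0 and 29.3 CPM at 16 h and 41.9 and 45.0 CPM at 32 h. Each KO library lies below both WT libraries of its stage. This gave a log2 fold change of -0.75 ± 0.11 at ESC, -1.43 ± 0.1 at 16 h and -1.0 ± 0.1 at 32 h, with adjusted p = 0.0024, 6.2e-05 and 9.2e-05 in that order. Sall2 still rose in KO cells, by 1.97 ± 0.12 log2 units at 16 h and 2.65 ± 0.11 at 32 h over ESC (adjusted p = 3.2e-07 and 1.6e-06 in that order). From 16 h to 32 h KO cells gained 0.6 ± 0.11 (adjusted p = 0.0075), and the KO and WT responses at 32 h differed by -0.25 ± 0.14 (adjusted p = 0.51).

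Utf1 in KO1 and KO2 measured 9.64 and 9.20 CPM at ESC, 27.4 and 18.6 CPM at 16 h and 19.3 and 20.9 CPM at 32 h. All lie below the WT libraries of the same stage. In log2 units the difference was -0.74 ± 0.12 at ESC, -0.89 ± 0.18 at 16 h and -0.71 ± 0.11 at 32 h, with adjusted p = 0.0042, 0.01 and 0.0014 in that order. The rise over ESC in KO cells was 1.29 ± 0.16 at 16 h and 1.17 ± 0.12 at 32 h (adjusted p = 9.1e-05 and 0.00013 in that order).

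Sall4 in KO1 and KO2 measured 211 and 211 CPM at ESC, 253 and 221 CPM at 16 h and 167 and 162 CPM at 32 h. Its KO libraries lie below the WT libraries at each stage by small steps. On the log2 scale that was -0.19 ± 0.07 at ESC, -0.39 ± 0.09 at 16 h and -0.28 ± 0.07 at 32 h, with adjusted p = 0.12, 0.014 and 0.015 in that order. At ESC it was called with DESeq2 (-0.22). It was also called with 1 WT library left at ESC, without line Zfp281_WT (-0.28) or its ESC library (-0.29). KO cells fell by 0.28 log2 units at 32 h against ESC (SE 0.07, adjusted p = 0.017) and by 0.53 against 16 h (SE 0.09, adjusted p = 0.0058), and 16 h against ESC gave 0.17 ± 0.09 (adjusted p = 0.31).

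Sall1 in KO1 and KO2 measured 127 and 134 CPM at ESC, 251 and 226 CPM at 16 h and 216 and 213 CPM at 32 h. Both KO libraries exceeded both WT libraries at ESC and 32 h, and at 16 h line WT, at 234 CPM, lay between them. As log2 fold change this was 0.62 ± 0.21 at ESC, 0.31 ± 0.2 at 16 h and 0.39 ± 0.2 at 32 h, with adjusted p = 0.089, 0.32 and 0.21 in that order. Line Zfp281_WT sets the size of these values: without it the differences were 0.27 at ESC and 0.16 at 32 h. Both were called, with the spread taken from the KO clones alone. Without the library of line WT the differences were 1.13 at ESC and 0.64 at 16 h. Within KO cells Sall1 rose by 0.79 ± 0.21 at 32 h over ESC (adjusted p = 0.025), and its 16 h difference of 0.87 ± 0.26 (adjusted p = 0.057) was called with line as a block (adjusted p = 3.5e-06).

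Pou5f1 in KO1 and KO2 measured 953 and 985 CPM at ESC, 963 and 1037 CPM at 16 h and 920 and 965 CPM at 32 h. These libraries lie within the WT range at ESC and below the WT libraries later. The largest difference was -0.28 ± 0.09 at 16 h (adjusted p = 0.05, just over the threshold), which was called with DESeq2 (adjusted p = 0.017), with no filter (-0.29), and without the 16 h library of WT (-0.35) or Zfp281_WT (-0.2). At ESC it was 0.01 ± 0.1 (adjusted p = 0.94) and at 32 h -0.1 ± 0.1 (adjusted p = 0.47). Without line Zfp281_WT both were called, at -0.14 and -0.21, with the spread taken from the KO clones alone.

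Within KO cells 3 of the 6 genes rose and 1 fell between ESC and 32 h, where 24.7% of genes were called (14.2% higher, 10.4% lower). At 16 h 2 rose, where 14.2% were called (6.99% higher, 7.22% lower), and from 16 h to 32 h 1 rose and 1 fell, where 4.36% were called (1.98% higher, 2.38% lower). Between the responses of KO and WT cells none of the 6 was called by edgeR, where 4.15% of genes were called (1.95% higher, 2.2% lower); 1 of them, Sox2, had an unadjusted p under 0.05 and was called by DESeq2. The ESC calls of Sall2 and Utf1 were lost without KO1 (-0.65 and -0.72) or KO2 (-0.79 and -0.67), and the Sall4 calls were lost without KO2 at 16 h (-0.29) and without KO1 (-0.33), KO2 (-0.28) or line WT (-0.25) at 32 h. Calls within KO cells of Sall4 and Sall1 at 32 h against ESC were lost without any 1 of the 4 libraries (-0.39 to -0.33 and 0.65 to 0.74), those of Sall2 at 32 h against 16 h likewise (0.55 to 0.65), and that of Sall4 at 32 h against 16 h without KO1 at 16 h (-0.42) or KO1 (-0.55) or KO2 (-0.51) at 32 h. With no filter on low counts and all libraries kept, the call of Sall4 at 32 h in KO against WT was lost (-0.24, adjusted p = 0.24), as were those of Sall4 (-0.37) and Sall1 (0.7) at 32 h against ESC within KO cells. The response difference of Sall1 was -0.23 ± 0.29 (adjusted p = 0.88), but -0.7 (adjusted p = 0.048) without the ESC library of line WT and 0.07 without that of Zfp281_WT.

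**Figure D2:**
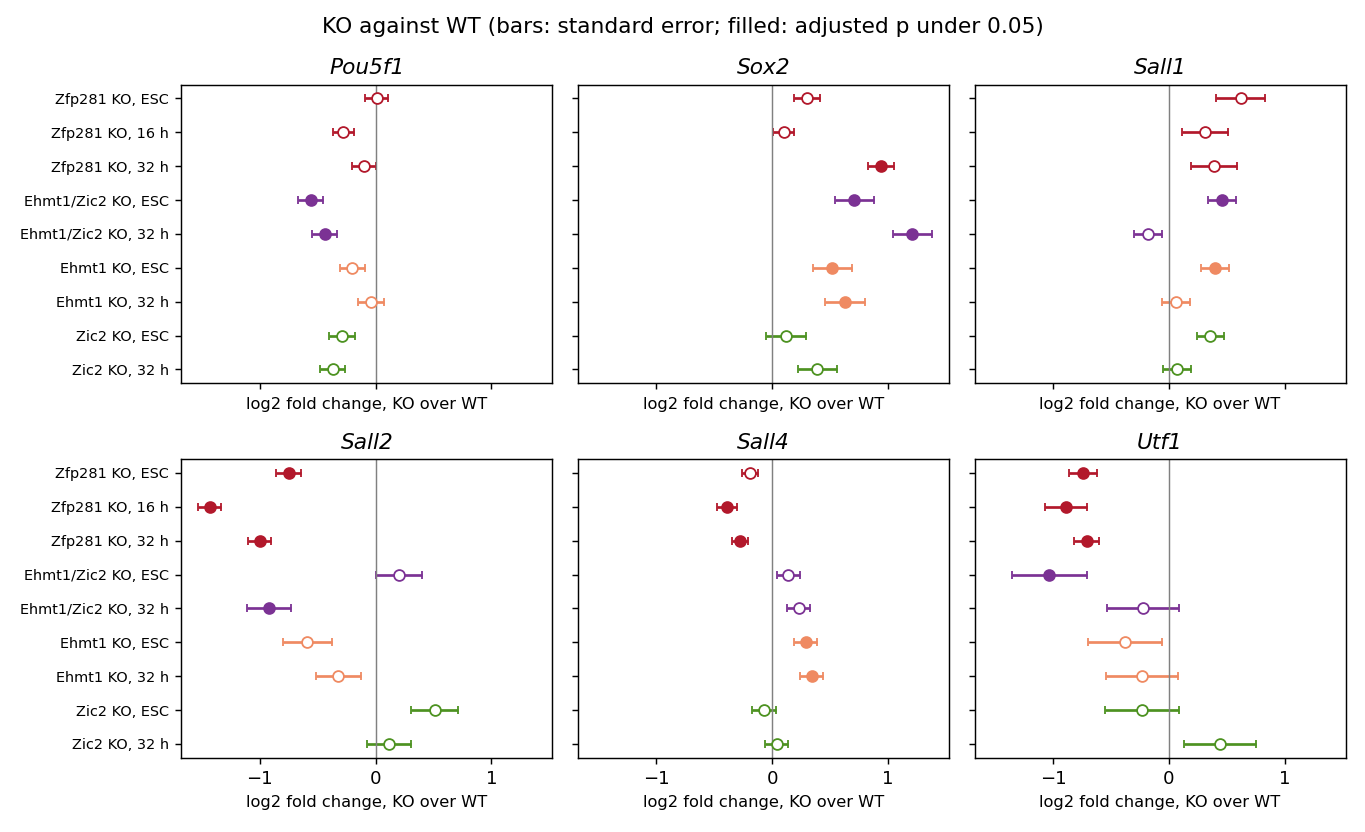
Difference of each KO from the WT of its kit, as log2 fold change (KO over WT) with its standard error, for each gene and stage. Filled points have an adjusted p under 0.05; Zfp281 KO points of Sall2 and Utf1 lie left of 0 at each stage and filled Sox2 points lie right of 0.

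Ehmt1 is a subunit of a methyltransferase that acts on lysine 9 of histone H3, and Zic2 is a zinc-finger transcription factor. In the polyA set Sox2 was higher than in WT in Ehmt1/Zic2 KO and in Ehmt1 KO cells. In Ehmt1/Zic2 KO cells 2 of the 6 genes were higher and 2 lower at ESC, where 39.4% of all genes tested were called (20.9% higher, 18.5% lower), and 1 was higher and 2 lower at 32 h, where 39.1% were called (21.4% higher, 17.8% lower). In Ehmt1 KO cells 3 were higher at ESC, where 26.9% were called (14.8% higher, 12.1% lower), and 2 were higher at 32 h, where 26.6% were called (15.1% higher, 11.4% lower). In libraries labelled Zic2 KO none was called by edgeR at ESC or 32 h, where 0.274% and 0.0766% were called, and none by DESeq2, with 3 and 2 of the 6 at an unadjusted p under 0.05. All 3 genotypes share the WT libraries as their reference. The median of the 6 in Ehmt1/Zic2 KO was 0.17 at ESC and -0.2 at 32 h, against 0.0 and 0.02 over all genes tested.

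Sox2 measured 399 and 363 CPM in Ehmt1/Zic2 KO, 325 and 343 CPM in Ehmt1 KO and 209 and 299 CPM in Zic2 KO, against 232 and 235 CPM in WT at ESC. The first 2 of these genotypes lie above WT without overlap, and Zic2 KO straddles it. The log2 fold change was 0.71 ± 0.17 in Ehmt1/Zic2 KO (adjusted p = 0.0055) and 0.52 ± 0.17 in Ehmt1 KO (adjusted p = 0.037). At 32 h Sox2 measured 229 and 276 CPM in Ehmt1/Zic2 KO, 154 and 183 CPM in Ehmt1 KO and 127 and 159 CPM in Zic2 KO, against 99.9 and 118 CPM in WT. Every KO library lies above both WT libraries, and those of Ehmt1/Zic2 KO lie above all others. This gave a log2 fold change of 1.21 ± 0.17 in Ehmt1/Zic2 KO (adjusted p = 0.00018), 0.63 ± 0.17 in Ehmt1 KO (adjusted p = 0.015) and 0.39 ± 0.17 in Zic2 KO (adjusted p = 0.47).

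Set against the single mutants, Ehmt1/Zic2 KO differed from Zic2 KO in Sox2 by 0.58 ± 0.17 (adjusted p = 0.018) at ESC and 0.82 ± 0.17 (adjusted p = 0.0026) at 32 h, and from Ehmt1 KO by 0.58 ± 0.17 at 32 h (adjusted p = 0.19). Sox2 fell at 32 h within each genotype, by 0.59 log2 units in Ehmt1/Zic2 KO (adjusted p = 0.033), 0.98 in Ehmt1 KO (adjusted p = 0.0012) and 0.83 in Zic2 KO (adjusted p = 0.0024). The response of Ehmt1/Zic2 KO differed from that of WT by 0.51 ± 0.24 (adjusted p = 0.24), and with line as a block that difference was called (adjusted p = 0.035). Sox2ot averaged 1.84 CPM in Ehmt1/Zic2 KO and 0.769 CPM in WT at 32 h, a log2 fold change of 1.26 (adjusted p = 0.0056).

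Pou5f1 moved the other way in Ehmt1/Zic2 KO cells. At ESC it measured 1080 and 1214 CPM in Ehmt1/Zic2 KO, 1406 and 1526 CPM in Ehmt1 KO and 1427 and 1338 CPM in Zic2 KO, against 1888 and 1490 CPM in WT. The Ehmt1/Zic2 KO libraries are the lowest and WT holds the highest. In log2 units the difference was -0.56 ± 0.11 in Ehmt1/Zic2 KO (adjusted p = 0.0022) and -0.2 ± 0.11 in Ehmt1 KO (adjusted p = 0.2, and -0.34 with adjusted p = 0.046 without the Zic2_WT library). At 32 h it measured 1102 and 1119 CPM in Ehmt1/Zic2 KO, 1383 and 1545 CPM in Ehmt1 KO and 1144 and 1193 CPM in Zic2 KO, against 1556 and 1465 CPM in WT. Ehmt1/Zic2 KO and Zic2 KO lie close together below WT, with a log2 fold change of -0.44 ± 0.11 (adjusted p = 0.0082) and -0.37 ± 0.11 (adjusted p = 0.28), and the second was called with only the groups compared in the fit (adjusted p = 0.0018). Between Ehmt1/Zic2 KO and Ehmt1 KO the difference at 32 h was -0.4 ± 0.11 (adjusted p = 0.19), called by DESeq2 (adjusted p = 0.045), and within Zic2 KO 32 h differed from ESC by -0.24 ± 0.11 (adjusted p = 0.13), called with line as a block (adjusted p = 0.039).

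Sall2 was lower at 32 h in Ehmt1/Zic2 KO. At 32 h it measured 108 and 87.7 CPM in Ehmt1/Zic2 KO, 114 and 183 CPM in Ehmt1 KO and 207 and 194 CPM in Zic2 KO, against 189 and 181 CPM in WT. The Ehmt1/Zic2 KO libraries lie below all others, and the Ehmt1 KO clones differ widely. On the log2 scale that was -0.92 ± 0.19 in Ehmt1/Zic2 KO (adjusted p = 0.0023), -0.32 ± 0.19 in Ehmt1 KO (adjusted p = 0.24, and -0.7 with adjusted p = 0.012 without KO2) and 0.12 ± 0.19 in Zic2 KO (adjusted p = 0.94). Against Zic2 KO the Ehmt1/Zic2 KO difference was -1.04 ± 0.19 (adjusted p = 0.0013), and against Ehmt1 KO it was -0.6 ± 0.19 (adjusted p = 0.22, and -0.9 with adjusted p = 0.022 without KO1 of Ehmt1 KO).

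At ESC Sall2 measured 21.9 and 19.5 CPM in Ehmt1/Zic2 KO, 10.3 and 13.9 CPM in Ehmt1 KO and 26.8 and 24.6 CPM in Zic2 KO, against 17.3 and 18.9 CPM in WT. None of these genotypes was called, at 0.2 ± 0.2 (adjusted p = 0.47), -0.59 ± 0.21 (adjusted p = 0.054) and 0.51 ± 0.2 (adjusted p = 0.41) log2 units, though Ehmt1 KO was called by DESeq2 (adjusted p = 0.038) and without KO2 (-0.81). The rise to 32 h was 2.24 ± 0.2 log2 units in Ehmt1/Zic2 KO (adjusted p = 2.4e-05), 3.62 ± 0.22 in Ehmt1 KO (adjusted p = 6.7e-07) and 2.96 ± 0.21 in Zic2 KO (adjusted p = 9.2e-07). The Ehmt1/Zic2 KO response minus that of WT was -1.11 ± 0.28 log2 units (adjusted p = 0.036). It is the single call among the 6 in that contrast, where 5.29% of genes were called (3.08% higher, 2.21% lower), and it was lost without 5 of the 8 libraries in turn: Ehmt1_WT at ESC (-1.05) and 32 h (-1.08), Zic2_WT at 32 h (-1.15), and Ehmt1/Zic2 KO1 at ESC (-1.02) and KO2 at 32 h (-0.94).

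Utf1 was lower than in WT in Ehmt1/Zic2 KO at ESC, and its difference at 32 h was not called. At ESC it measured 46.6 and 68.5 CPM in Ehmt1/Zic2 KO, 97.1 and 83 CPM in Ehmt1 KO and 85.7 and 115 CPM in Zic2 KO, against 136 and 98.5 CPM in WT. Only the Ehmt1/Zic2 KO libraries lie clear of every other genotype. As log2 fold change this was -1.03 ± 0.32 (adjusted p = 0.023), and -0.38 ± 0.32 in Ehmt1 KO (adjusted p = 0.41). At 32 h Utf1 measured 188 and 190 CPM in Ehmt1/Zic2 KO, 130 and 245 CPM in Ehmt1 KO and 213 and 386 CPM in Zic2 KO, against 192 and 249 CPM in WT. The clones of the single mutants spread widely, and Ehmt1/Zic2 KO against WT gave -0.22 ± 0.31 (adjusted p = 0.6). Its rise to 32 h was 1.71 ± 0.33 in Ehmt1/Zic2 KO (adjusted p = 0.004), 1.06 ± 0.32 in Ehmt1 KO (adjusted p = 0.031) and 1.58 ± 0.32 in Zic2 KO (adjusted p = 0.0024), and the Ehmt1/Zic2 KO response differed from that of WT by 0.8 ± 0.45 (adjusted p = 0.33).

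Sall1 was higher than in WT at ESC in Ehmt1/Zic2 KO and Ehmt1 KO, and no KO differed from WT by the test at 32 h. At ESC it measured 239 and 240 CPM in Ehmt1/Zic2 KO, 213 and 248 CPM in Ehmt1 KO and 220 and 229 CPM in Zic2 KO, against 153 and 196 CPM in WT. All KO libraries lie above both WT libraries. The log2 fold change was 0.46 ± 0.12 in Ehmt1/Zic2 KO (adjusted p = 0.011), 0.4 ± 0.12 in Ehmt1 KO (adjusted p = 0.028) and 0.36 ± 0.12 in Zic2 KO (adjusted p = 0.3, and 0.58 with adjusted p = 0.049 without Zic2_WT). At 32 h it measured 360 and 311 CPM in Ehmt1/Zic2 KO, 391 and 398 CPM in Ehmt1 KO and 376 and 418 CPM in Zic2 KO, against 383 and 376 CPM in WT. The rise was 0.49 ± 0.12 in Ehmt1/Zic2 KO (adjusted p = 0.018), 0.78 ± 0.12 in Ehmt1 KO (adjusted p = 0.00067) and 0.83 ± 0.12 in Zic2 KO (adjusted p = 0.00024). Ehmt1/Zic2 KO at 32 h differed from WT by -0.18 ± 0.12 (adjusted p = 0.26), and its response by -0.63 ± 0.17 (adjusted p = 0.051), which was called with line as a block (-0.65, adjusted p = 0.0084), by DESeq2 (-0.64, adjusted p = 0.015), with no filter (adjusted p = 0.048) and without Zic2_WT at ESC (-0.82).

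Sall4 was higher in Ehmt1 KO. At ESC it measured 279 and 282 CPM in Ehmt1/Zic2 KO, 287 and 332 CPM in Ehmt1 KO and 246 and 237 CPM in Zic2 KO, against 259 and 249 CPM in WT. At 32 h it measured 288 and 327 CPM in Ehmt1/Zic2 KO, 318 and 345 CPM in Ehmt1 KO and 274 and 266 CPM in Zic2 KO, against 267 and 256 CPM in WT. Ehmt1/Zic2 KO and Ehmt1 KO lie above WT at both stages by steps under 100 CPM. The log2 fold change in Ehmt1 KO was 0.29 ± 0.1 at ESC (adjusted p = 0.043) and 0.34 ± 0.1 at 32 h (adjusted p = 0.019), and in Ehmt1/Zic2 KO 0.14 ± 0.1 (adjusted p = 0.25) and 0.23 ± 0.1 (adjusted p = 0.072, called by DESeq2 and without KO1 at 32 h, at 0.24 and 0.33).

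Between ESC and 32 h 3 of the 6 genes rose and 1 fell in each KO genotype, where 14.4% of genes were called in Ehmt1/Zic2 KO (7.17% higher, 7.19% lower), 22.5% in Ehmt1 KO (11.5% higher, 11.0% lower) and 30.9% in Zic2 KO (15.7% higher, 15.2% lower). Ehmt1/Zic2 KO against Zic2 KO called 1 of the 6 at ESC, where 34.2% were called, and 2 at 32 h, where 35.9% were called. Utf1 in that contrast was -0.8 ± 0.32 at ESC (adjusted p = 0.07), called by DESeq2 (-0.79) and without Ehmt1/Zic2 KO2 (-1.13), and -0.67 ± 0.31 at 32 h (adjusted p = 0.12), called without Zic2 KO1 (-1.04). Pou5f1 was -0.27 ± 0.11 at ESC (adjusted p = 0.083), called without Ehmt1/Zic2 KO2 (-0.39). Against Ehmt1 KO edgeR called none of the 6, where 0.0957% were called at ESC and 0.223% at 32 h, with 2 and 3 of the 6 at an unadjusted p under 0.05; DESeq2 called 1 at each stage, Sall2 at ESC (0.78, adjusted p = 0.033) and Pou5f1 at 32 h. The response contrasts of Ehmt1 KO and of Zic2 KO with WT called none of the 6 by edgeR or DESeq2, and none had an unadjusted p under 0.05, where 1.86% and 0.0% of genes were called.

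Many of these calls rest on single libraries. For Ehmt1 KO against WT at ESC, Sox2 was lost without any 1 of the 4 libraries (0.49 to 0.56), Sall4 without Ehmt1_WT (0.31), Zic2_WT (0.28) or KO2 (0.19), and Sall1 without Ehmt1_WT (0.23) or KO2 (0.29), while without Zic2_WT it was 0.62. At 32 h Sox2 was lost without Ehmt1_WT (0.51) or KO2 (0.5), and Sall4 without Ehmt1_WT (0.37), Zic2_WT (0.31) or KO2 (0.28). For Ehmt1/Zic2 KO against WT, Sall1 was lost without Ehmt1_WT at ESC (0.29), Utf1 without Ehmt1_WT (-0.78) or KO1 (-0.77) at ESC, and Pou5f1 without Ehmt1_WT at 32 h (-0.4). Sox2 against Zic2 KO at ESC was lost without Zic2 KO1 (0.34) or Ehmt1/Zic2 KO1 (0.51). For 32 h against ESC, the Ehmt1/Zic2 KO calls were lost without KO1 at ESC (Sox2 -0.54, Sall1 0.46, Utf1 1.44), KO2 at ESC (Sall1 0.49), KO1 at 32 h (Sox2 -0.48, Sall1 0.35) or KO2 at 32 h (Sox2 -0.73), and the Ehmt1 KO call of Utf1 without KO1 (1.16) or KO2 (0.93) at ESC or KO2 at 32 h (0.53). With all libraries kept but only the groups compared in the fit, the calls of Pou5f1 (-0.52, adjusted p = 0.057) and Sall1 (0.49) were lost in Ehmt1/Zic2 KO at ESC, those of Sall1 (0.43) and Sall4 (0.31) in Ehmt1 KO at ESC, and that of Sox2 in Ehmt1/Zic2 KO against Zic2 KO at ESC (0.61). For 32 h against ESC that fit lost Sox2 (-0.58) and Sall1 (0.49) in Ehmt1/Zic2 KO, Utf1 in Ehmt1 KO (1.06), and Sox2 (-0.84) and Utf1 (1.57) in Zic2 KO. With no filter the losses were Utf1 in Ehmt1/Zic2 KO at ESC (-1.04), Sall4 in Ehmt1 KO at ESC (0.28) and the rise of Utf1 in Ehmt1 KO (1.06).

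**Figure D3:**
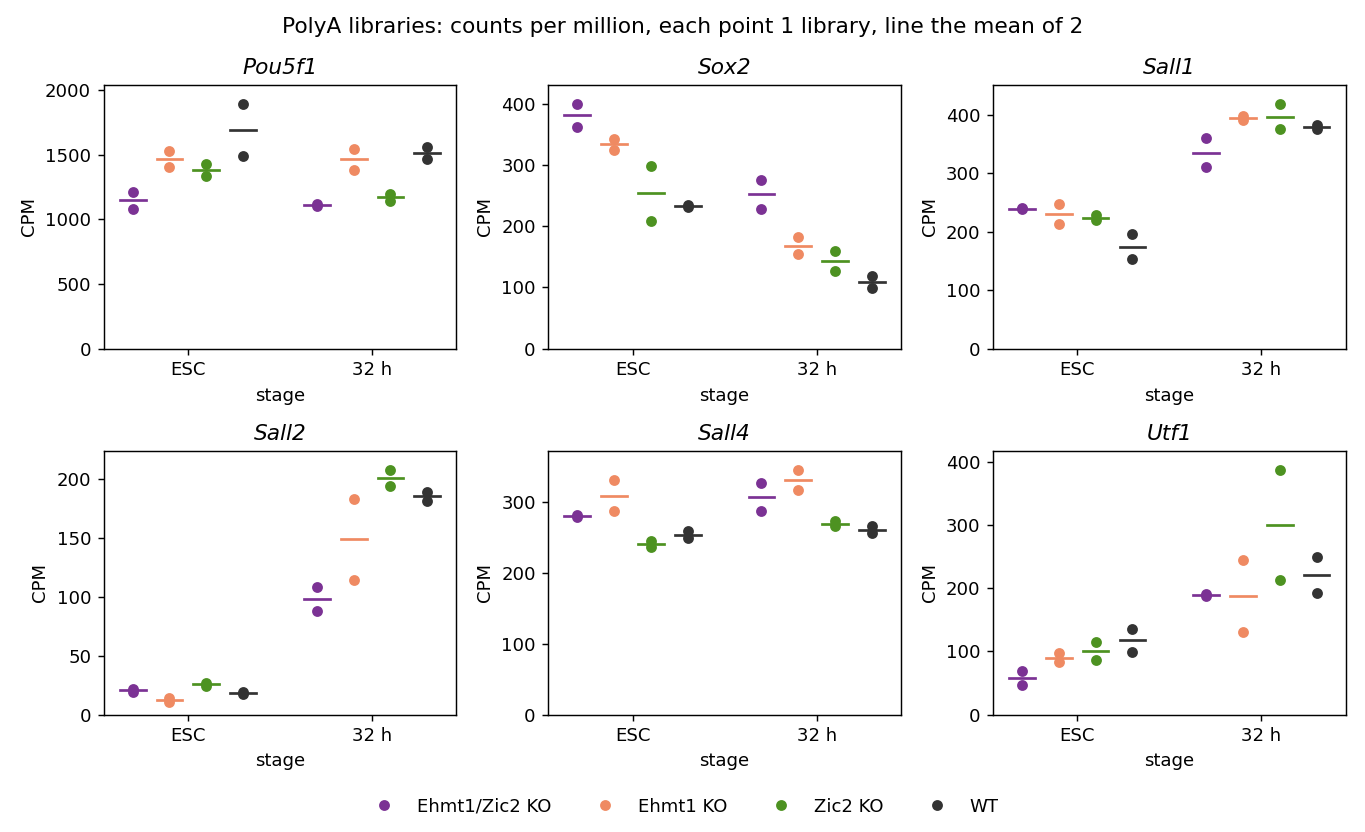
Level of each of the 6 genes in the polyA libraries, in CPM on a linear axis from 0, at ESC and 32 h. Each point is 1 library and each line the mean of 2, ordered as Ehmt1/Zic2 KO, Ehmt1 KO, Zic2 KO and WT within a stage; at 32 h the Ehmt1/Zic2 KO points of Sox2 lie at 229 and 276 CPM, above the WT points at 99.9 and 118 CPM.

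**Figure D4:**
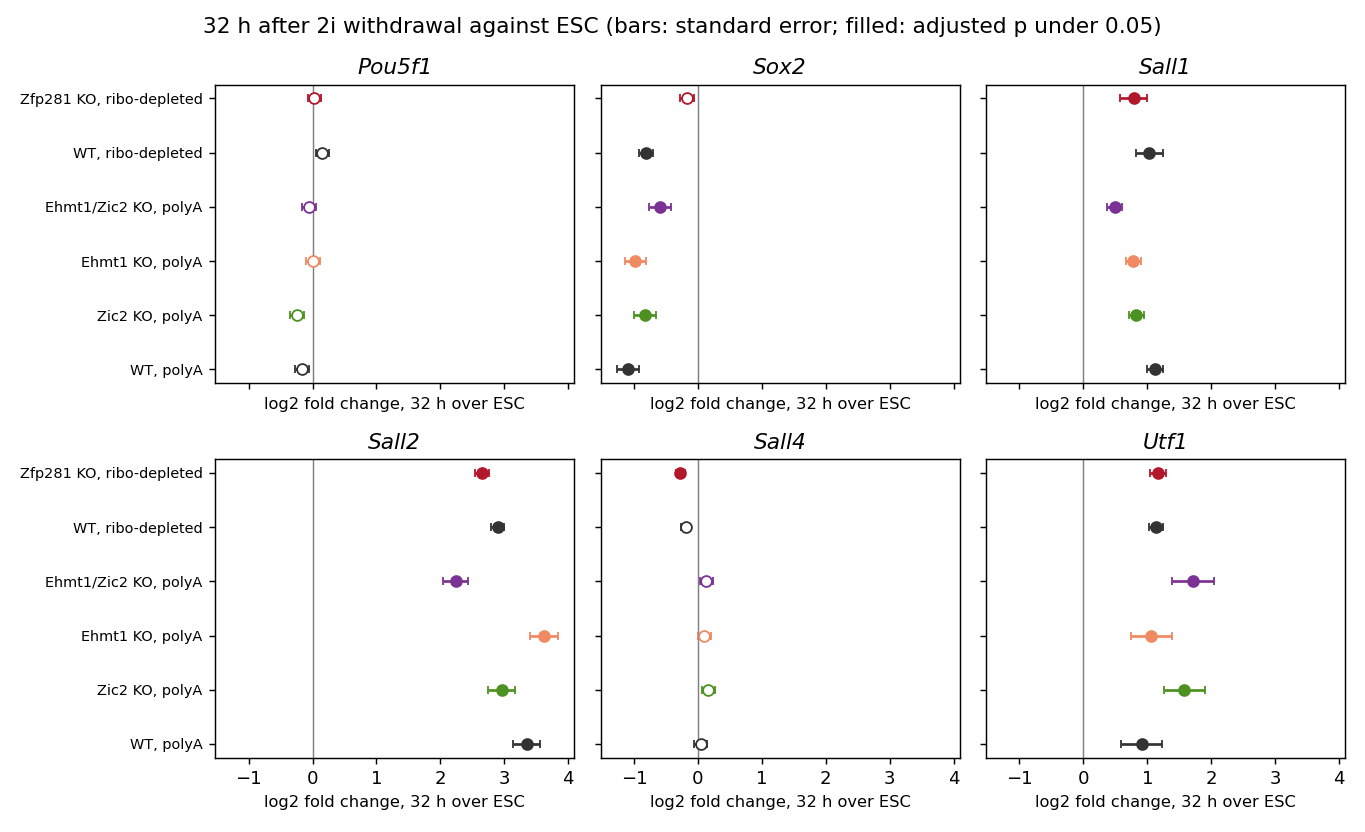
Difference of 32 h from ESC within each genotype and kit, as log2 fold change (32 h over ESC) with its standard error. Filled points have an adjusted p under 0.05; Sall2 lies far right of 0 in all 6 rows, and Sox2 lies left of 0, with an open point in Zfp281 KO.

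Per kb of exon the order of the 6 genes changed with stage and kit. Pou5f1 came first in all 28 libraries, at 392 to 577 CPM per kb in the ribo-depleted and 480 to 840 CPM per kb in the polyA set. Sox2 came second in every ribo-depleted library. In polyA WT libraries at 32 h it measured 48.6 and 57.5 CPM per kb, behind Utf1 (156 and 203) and Sall1 (72.8 and 71.4). Sall2 came last in every library, although in WT it reached 34.8 and 33.3 CPM per kb at 32 h, against 3.18 and 3.48 CPM per kb at ESC in the polyA set. Neighbours that swapped between libraries of 1 group include Sall1 with Utf1 in ribo-depleted WT at each stage. This swap followed the line, with Sall1 above Utf1 in line WT and below it in line Zfp281_WT.

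Among Sall4, Sall1 and Sall2, with Sall3 left out, Sall2 and Sall1 made up more, and Sall4 less, of the level in WT cells at 32 h than at ESC. Of the summed level per kb of Sall4, Sall1 and Sall2, Sall2 made up 17.7% and 21.1% in WT cells of the ribo-depleted set at 32 h, against 3.63% and 3.68% at ESC. In Zfp281 KO cells at 32 h it made up 9.77% and 10.6%, below both WT libraries, while Sall1 made up 52.0% and 51.8%, against 40.4% and 33.8% in WT. In the polyA set at 32 h Sall2 made up 14.1% and 12% in Ehmt1/Zic2 KO, 13.7% and 19.6% in Ehmt1 KO and 24.0% and 21.9% in Zic2 KO, against 22.3% and 22.0% in WT. The summed level of Sall4, Sall1 and Sall2 at 32 h was 140 and 134 CPM per kb in Ehmt1/Zic2 KO, against 156 and 151 CPM per kb in WT. No test was run on these shares. Sall3, left out of them, averaged 5.26 CPM per kb in ribo-depleted WT at ESC, above Sall2 at 2.3, and 1.37 at 32 h, below Sall2 at 16.8. In Zfp281 KO Sall3 averaged 11.9 CPM per kb at ESC and 6.4 at 32 h, against 1.34 and 8.0 for Sall2. In polyA WT it averaged 9.17 at ESC and 5.99 at 32 h, against 3.33 and 34.0 for Sall2.

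**Figure D5:**
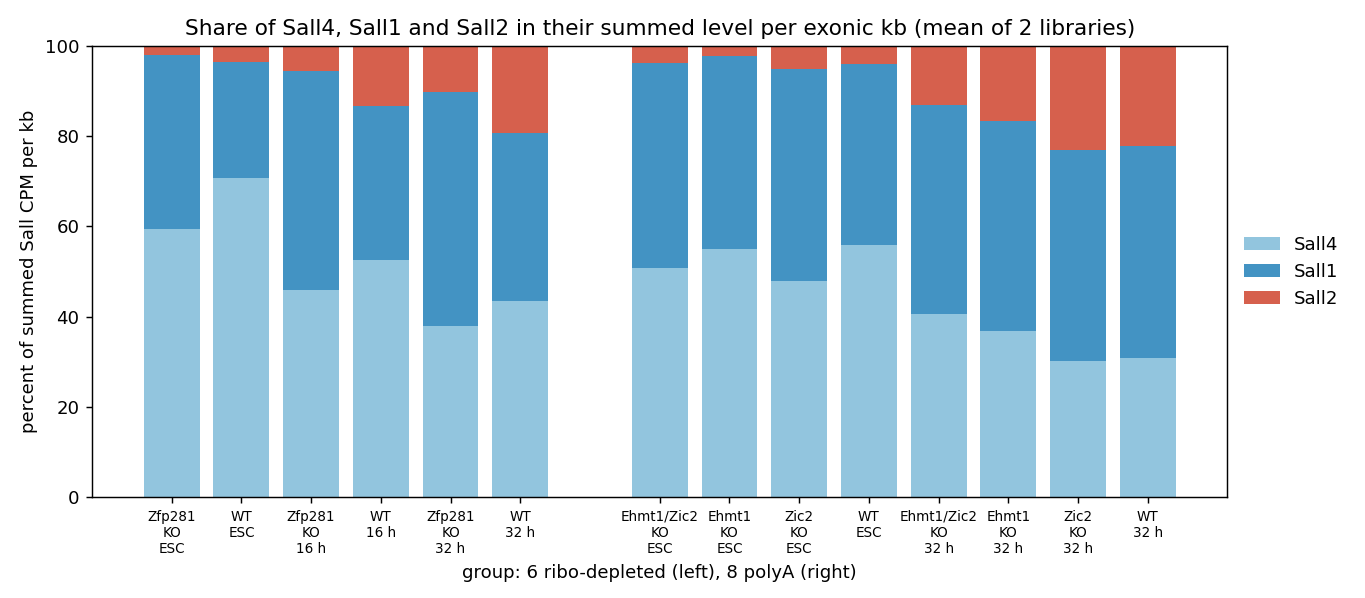
Shares of Sall4, Sall1 and Sall2 in their summed level per exonic kb, as mean percent of 2 libraries for each of the 14 groups. Sall3 is not included. The Sall2 block at the top of each bar is thin at ESC and thicker at 32 h, and at 32 h it is thinner in Zfp281 KO, Ehmt1/Zic2 KO and Ehmt1 KO than in the WT of the same kit.

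Sall3, the relative outside the 6, was higher in Zfp281 KO than in WT at ESC and 32 h. It averaged 47.9 CPM in Zfp281 KO and 10.3 CPM in WT at 32 h (log2 fold change 2.27 ± 0.28, adjusted p = 0.00089), and 88.7 CPM in Zfp281 KO and 39.3 CPM in WT at ESC (1.2 ± 0.26, adjusted p = 0.023). At 16 h it averaged 89.4 CPM in Zfp281 KO and 42.4 CPM in WT, which did not pass the test (1.09 ± 0.35, adjusted p = 0.11). At 32 h against ESC the log2 fold change was -1.88 ± 0.28 in ribo-depleted WT (adjusted p = 0.0021). It was -0.61 ± 0.27 in polyA WT (adjusted p = 0.09) and -0.81 ± 0.26 in Zfp281 KO (adjusted p = 0.057), and neither passed the test. In Ehmt1/Zic2 KO it averaged 39.1 CPM, against 44.8 CPM in WT at 32 h (-0.2 ± 0.27, adjusted p = 0.58).

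Many other factors of the pluripotency network differed between KO and WT at 32 h. Of 20 network factors, 13 were higher and 2 lower in Zfp281 KO than in WT at 32 h, where 16.6% of all genes were called higher and 11.9% lower, with a median of 1.0 against -0.07 over all genes. Ehmt1/Zic2 KO had 13 higher and 3 lower, where 21.4% were called higher and 17.8% lower, with a median of 1.1 against 0.02. Nr0b1, an orphan nuclear receptor that binds Oct4, was 2.21 ± 0.14 log2 units higher in Zfp281 KO (adjusted p = 1.5e-05), and Esrrb, an orphan receptor of the naive state, was 2.47 ± 0.14 higher in Ehmt1/Zic2 KO (adjusted p = 1.8e-07). Lin28a, an RNA-binding protein that blocks let-7, went the other way in Zfp281 KO, at -2.74 ± 0.1 (adjusted p = 1.9e-06). Of 20, 6 rose and 10 fell in ribo-depleted WT at 32 h against ESC, where 15.0% rose and 11.0% fell over all genes, led by the rise of Otx2, a formative factor (2.56 ± 0.12, adjusted p = 1.2e-06).

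Of 10 textbook targets of the Oct4 and Sox2 pair, 7 were higher and 1 lower in Zfp281 KO than in WT at 32 h, with a median of 0.83 against -0.07 over all genes, of which 16.6% were called higher and 11.9% lower. Jarid2, a partner of Polycomb complex PRC2, averaged 827 CPM in Zfp281 KO and 386 CPM in WT (1.17 ± 0.1, adjusted p = 6.2e-05), and Fgf4, the growth factor that drives exit, was lower (-0.5 ± 0.09, adjusted p = 0.0026). In Ehmt1/Zic2 KO at 32 h 4 were higher and 1 lower, with a median of 0.53 against 0.02 over all genes, of which 21.4% were called higher and 17.8% lower. The higher ones were led by Fbxo15 at 489 CPM against 98.3 CPM in WT (2.31 ± 0.14, adjusted p = 2.7e-07). Utf1 is a target of the same pair and was lower in Zfp281 KO, at 19.3 and 20.9 CPM against 30.9 and 38.3 CPM in WT at 32 h.

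NuRD is the complex that Sall4 and Sall1 recruit. Of 13 subunits, 1 was higher and 3 lower in Zfp281 KO than in WT at 32 h, a share near the 28.5% called over all genes, with a median of -0.1 against -0.07. At 16 h 7 were lower and none higher, where 13.3% of all genes were lower and 15.3% higher, with a median of -0.34 against -0.01. Chd3, a chromatin remodeller, led at 16 h (-1.11 ± 0.17, adjusted p = 0.0021), followed by the histone chaperone Rbbp4 (-0.34 ± 0.08, adjusted p = 0.012). In Ehmt1/Zic2 KO 5 of 13 were lower and none higher at 32 h, where 17.8% were lower and 21.4% higher, with a median of -0.26 against 0.02 and Mta3 at -0.7 ± 0.11 (adjusted p = 0.00047).

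Of 12 Sox, POU and Sall relatives tested, 2 were higher and 5 lower in Zfp281 KO than in WT at 32 h, where 16.6% of all genes were higher and 11.9% lower, and the lower ones were led by Sox11 (-1.45 ± 0.09, adjusted p = 1.2e-05) and Sox1 (-1.17 ± 0.11, adjusted p = 0.0001). In Ehmt1/Zic2 KO 1 of 11 was higher and 5 were lower at 32 h, where 21.4% of all genes were higher and 17.8% lower, with Sox1 at -5.75 ± 0.58 (adjusted p = 1.7e-05). Pou3f1, a POU factor of the formative state, rose by 5.41 ± 0.18 log2 units in ribo-depleted WT at 32 h over ESC (adjusted p = 3.7e-07). Summed levels of 7 neural markers (Sox1 among them) lay at 117 to 119 CPM in Zfp281 KO, against 132 to 142 CPM in WT at 32 h, and at 188 to 241 CPM in Ehmt1/Zic2 KO, against 163 to 179 CPM in WT. At 1 CPM or more in both libraries were 4 of the 7 in Zfp281 KO and 5 in WT, and 3 in Ehmt1/Zic2 KO and 6 in WT. The neural list split, which its sum does not show. In Zfp281 KO at 32 h Sox1, Zic1 (-3.03) and Pax6 (-0.56) were called lower and Tubb3 (0.73) higher. In Ehmt1/Zic2 KO at 32 h Sox1, Zic1 (-5.72) and Pax6 (-1.69) were called lower, and Nes (1.09) and Tubb3 (1.27) higher. Summed levels of 7 trophoblast markers lay at 30.5 to 30.7 CPM in Zfp281 KO, against 17.3 to 19.8 CPM in WT at 32 h, with 1 marker called, Eomes (1.51 ± 0.11, adjusted p = 2.1e-05), and 3 of 7 in KO and 4 in WT at 1 CPM or more in both libraries. They lay in Ehmt1/Zic2 KO at 47.0 to 47.7 CPM, against 21.8 to 23.8 CPM in WT at 32 h, with Tfap2c (1.75 ± 0.27, adjusted p = 0.00038) and Elf5 (without a count in WT) called higher, Cdx2 called lower, and 4 of 7 in each group at 1 CPM or more. Mesendoderm markers, 6 in all, summed to 16.1 CPM in Zfp281 KO libraries, against 6.51 to 8.59 CPM in WT, and to 10.2 to 12.3 CPM in Ehmt1/Zic2 KO, against 9.3 to 9.42 CPM in WT at 32 h. Eomes is on this list as well as the trophoblast list, so both sums contain it. At 32 h it was the only mesendoderm marker called in Zfp281 KO. T was called higher in Zfp281 KO at ESC (1.14 ± 0.3, adjusted p = 0.035) and 16 h (1.44 ± 0.42, adjusted p = 0.031). Gsc was called higher at 16 h (1.72 ± 0.51, adjusted p = 0.033), and Eomes at ESC and 16 h as well. In Ehmt1/Zic2 KO at 32 h no mesendoderm marker was called higher, and Foxa2 was called lower (-2.11 ± 0.64, adjusted p = 0.019). Of 7 primitive endoderm markers at 32 h, Gata4 (-1.3) and Dab2 (-3.12) were called lower in Zfp281 KO and none higher. In Ehmt1/Zic2 KO Sox17 (3.32) and Pdgfra (2.41) were called higher, and Gata4 (-2.07) and Foxa2, which is on both lists, lower. Their sums were 6.36 to 9.03 CPM in Zfp281 KO, against 9.29 to 16.0 CPM in WT. In Ehmt1/Zic2 KO they were 13.9 to 22.3 CPM, against 19.5 to 24.0 CPM in WT. The part of any of these markers in the Sox2 difference was not tested.

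Genes with the pattern most like each member were sought among 9356 genes over the 8 polyA group means. For Sall2 the nearest was Dnmt3a, the DNA methyltransferase, with r = 0.995, and r = 0.941 over the 4 ribo-depleted ESC and 32 h means; Qser1 (r = 0.989) and Wt1 (r = 0.985) followed, with r = 0.884 and 0.924 in the ribo-depleted means. For Sox2 they were Ttyh2 (0.995), Rbfa (0.989) and Zfp267 (0.988), with r = 0.069, 0.925 and 0.936 in the ribo-depleted means. Anxa11 (0.988), Mto1 (0.987) and Mdk (0.981) lay nearest to Utf1, and Dip2b (0.988), Chd7 (0.986) and Ssbp3 (0.984) nearest to Sall1. Over the ribo-depleted means these r values were -0.007, 0.901 and 0.945 for Utf1 and 0.378, 0.581 and 0.107 for Sall1. Sall4 was nearest to Aimp2 (0.983), Tubb4b (0.98) and Elmod2 (0.978), whose ribo-depleted r values were 0.396, -0.97 and -0.515. Pou5f1 was nearest to Pou5f1-rs4 (0.989), Mrps31 (0.972) and Get3 (0.972), with r = 0.782, -0.402 and -0.523 in the ribo-depleted means. Pou5f1-rs4 is a sequence related to Pou5f1, at 18.1 to 28.0 CPM over the groups, and which of the pair its reads came from is uncertain. These values describe few means that share libraries, with no test.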

How the data were processed

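The authors deposited raw counts per gene, with ESC and 32 h libraries in 1 table and 16 h libraries in another. GRCm38 (mm10) and edgeR are named in the submitters' processing notes. No source used here gives the aligner, the counting tool or its strand setting. Ribo-depleted RNA went through ScriptSeq V2 and polyA RNA through TruSeq mRNA, per the labels' protocols. Symbols came from RefSeq (24061 of 24116 IDs matched) and exonic lengths from GENCODE. Fits were run with edgeR 4.0.16 in R 4.3.3 (limma 3.58.1): filterByExpr with minimum count 10 and minimum total 15, TMM, and the quasi-likelihood test with robust dispersion. P-values were adjusted by Benjamini-Hochberg over all genes of the fit, and a gene was called under 0.05. The ribo-depleted ESC and 32 h, the 16 h and the polyA libraries were fitted apart; only steps to or from 16 h used all 12 ribo-depleted libraries jointly. CPM are counts scaled to TMM library size, with n = 2 per group. A response difference is the interaction of genotype with stage. SE was taken as |log2 fold change| / sqrt(F).

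Alternatives were DESeq2 1.42.0, its size factors, no filter, line as a block, only the groups compared, and leaving out each library or line Zfp281_WT. A line is the same line at each stage, so the block pairs by design; deviations of a line from its group mean correlated across stages at r = 0.066 to 0.684. The fit was tested on simulated data in which every gene had the same spread and lines had no effect of their own. It recovered 86% of 100 genes changed by 1 log2 unit among 16884, for Zfp281 KO against WT at ESC. Over the comparisons simulated this ran from 81% to 93%. Smaller changes were not simulated, so these shares do not give the power in the real data. Members, lists and named genes (the 6, up to 3 list genes with the smallest adjusted p per comparison, overlapping and targeted genes, and the 3 genes most like each member by r of log2(CPM + 1), with a mean of at least 10 CPM) were chosen with earlier results of these data known. The 6 genes had 224 to 43737 counts per library, and p-values rest on the spread between the 2 lines of a group, pooled over the groups of a fit.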

Additional observations from a re-analysis of the deposited data

Results flagged for a closer look

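The 32 h response of Sall2 differed between Ehmt1/Zic2 KO and WT: the rise over ESC was smaller in Ehmt1/Zic2 KO by a difference of -1.11 ± 0.28 log2 units (SE, edgeR interaction, adjusted p = 0.036). Sall2 measured 108 and 87.7 CPM in Ehmt1/Zic2 KO and 189 and 181 CPM in WT at 32 h, and 21.9 and 19.5 CPM in Ehmt1/Zic2 KO and 17.3 and 18.9 CPM in WT at ESC. The call was lost without 5 of the 8 libraries in turn, with values from -1.15 to -0.94. No group had enough libraries for a search for samples that lie far from the others.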

How the results depend on the processing

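Of 991 recomputed values behind the results of the 6 genes, 828 kept direction and call, 93 lost the call, 60 gained it and 10 reversed; none of the reversed ones was called at first. For 32 h against ESC, Pou5f1 reversed in ribo-depleted WT without the ESC library of Zfp281_WT (-0.03, with 0.24 without that of line WT) and in polyA WT without that of Ehmt1_WT (0.02, with -0.33 without that of Zic2_WT), and Sox2 reversed at 16 h against ESC without line Zfp281_WT (-0.02). Pou5f1 in Zfp281 KO against WT at ESC (0.01) turned to -0.02 with DESeq2 or its size factors, -0.05 with only the groups compared, -0.14 without line Zfp281_WT and -0.16 to 0.23 without 1 library at a time. Sall1 turned to 0.12 for 32 h against 16 h in WT without the 16 h library of WT, and to 0.07 in the Zfp281 KO response without the ESC library of Zfp281_WT (lowest -0.49 and -0.7 without other libraries). Of 60 calls, 30 held under every alternative and 41 under every one that kept all libraries. With 2 lines per group, leaving 1 out assumes that the lone library varies like the other groups. The causes were not tested.

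How many of the 6 were called moved as follows. Leaving out 1 library at a time gave 0 to 4 for Zfp281 KO against WT at ESC (2 with all), 2 to 5 at 16 h (3), 2 for 32 h against ESC in Zfp281 KO (4), 0 to 2 for the Zfp281 KO response (0), 2 to 5 for 16 h against ESC in WT (5) and 0 to 1 for 32 h against 16 h in Zfp281 KO (2). In the polyA set it gave 1 to 3 for 32 h against ESC in Ehmt1/Zic2 KO (4), 0 to 2 for Ehmt1 KO against WT at ESC (3) and at 32 h (2), 0 to 1 for Zic2 KO at ESC (0), 2 to 4 for Ehmt1/Zic2 KO at ESC (4), 0 to 2 for its response (1), 0 to 3 for Ehmt1/Zic2 KO against Zic2 KO at ESC (1) and 0 to 1 against Ehmt1 KO at 32 h (0). Without line Zfp281_WT the number called moved for Zfp281 KO against WT at ESC, its response and 32 h against 16 h in WT. Those fits take their spread from the Zfp281 KO clones alone. With no filter 2 were called for 32 h against ESC in Zfp281 KO, 3 for 16 h against ESC in WT and 2 for the Ehmt1/Zic2 KO response. DESeq2 called 1 for the Zfp281 KO response, 2 for the Ehmt1/Zic2 KO response, 1 for Ehmt1/Zic2 KO against Ehmt1 KO at each stage and 2 against Zic2 KO at ESC. With only the groups compared in the fit, 2 were called for 16 h against ESC in WT, 4 for it in Zfp281 KO, 2 for 32 h against ESC in Ehmt1/Zic2 KO, 1 for Ehmt1 KO at ESC, 1 for Zic2 KO at 32 h, 2 for Ehmt1/Zic2 KO at ESC and 0 for it against Zic2 KO at ESC. With line as a replicate block 1 was called for the Zfp281 KO response and 3 for the Ehmt1/Zic2 KO response; a block by KO clone number, which is only a shared number, gave 3 for Ehmt1/Zic2 KO against Zic2 KO at ESC. Line as a block changed no call of the 6 other than those given beside the results.

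Over all genes the number of calls moved by more than 1.5 times under some alternative in each comparison, and the range over the alternatives follows each number. In the ribo-depleted set there were, for Zfp281 KO against WT at ESC 2618 (539 to 6537), for Zfp281 KO against WT at 32 h 5400 (2498 to 7901), for 32 h against ESC in WT (ribo-depleted) 4921 (2298 to 7525), for 32 h against ESC in Zfp281 KO 4679 (1723 to 8754) and for Zfp281 KO response 787 (62 to 2988) calls. Of steps to or from 16 h and KO at 16 h there were, for Zfp281 KO against WT at 16 h 4329 (2137 to 7008), for 16 h against ESC in WT 4731 (2404 to 7416), for 32 h against 16 h in WT 3119 (1523 to 4999), for 16 h against ESC in Zfp281 KO 2699 (1122 to 6144) and for 32 h against 16 h in Zfp281 KO 829 (161 to 3775) calls. Within polyA genotypes there were, for 32 h against ESC in WT (polyA) 5587 (3499 to 7378), for 32 h against ESC in Ehmt1 KO 3526 (1653 to 5509), for 32 h against ESC in Zic2 KO 4838 (2965 to 8112) and for 32 h against ESC in Ehmt1/Zic2 KO 2251 (319 to 4310) calls. In single KO cells there were, for Ehmt1 KO against WT at ESC 4214 (2590 to 4350), for Ehmt1 KO against WT at 32 h 4163 (2191 to 4323), for Ehmt1 KO response 291 (42 to 1361), for Zic2 KO against WT at ESC 43 (0 to 281), for Zic2 KO against WT at 32 h 12 (2 to 1516) and for Zic2 KO response 0 (0 to 50) calls. In the double mutant there were, for Ehmt1/Zic2 KO against WT at ESC 6166 (3386 to 6248), for Ehmt1/Zic2 KO against WT at 32 h 6129 (3745 to 6519), for Ehmt1/Zic2 KO response 829 (280 to 2611), for Ehmt1/Zic2 KO against Ehmt1 KO at ESC 15 (0 to 287), for Ehmt1/Zic2 KO against Zic2 KO at ESC 5358 (2945 to 5757), for Ehmt1/Zic2 KO against Ehmt1 KO at 32 h 35 (0 to 280) and for Ehmt1/Zic2 KO against Zic2 KO at 32 h 5632 (3131 to 6080) calls.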
